A study of Mus musculus with 16 samples.

Results

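The messenger RNA of 9 genes that adjust MAP kinase signalling was followed in mouse bone marrow-derived macrophages. They are the dual-specificity phosphatases Dusp1, Dusp2, Dusp4, Dusp5, Dusp6 and Dusp16 and the stress adaptors Gadd45a, Gadd45b and Gadd45g, taken by gene name from the 56748 genes of the count table. All 9 were found, and all 9 passed the filter on low counts that left 13438 genes for testing. The cells came from 4 wild type male C57BL6 mice and were grown in medium with L929 cell supernatant, and each mouse gave 1 library to each of 4 groups. The DMSO group received vehicle. The SR9009 group received 10 µM SR9009 for 16 hours; SR9009 is a small molecule that activates the REV-ERB nuclear receptors, repressors in the circadian clock. The LPS group received 100 ng/mL lipopolysaccharide, the bacterial ligand of Toll-like receptor 4, for 6 hours, and the fourth group received SR9009 and then LPS at these doses. For the LPS group the labels name only LPS, and whether these cells had DMSO overnight is not given.

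MAP kinases (ERK, JNK and p38) are switched on by phosphorylation of a threonine and a tyrosine in the activation loop. Dual-specificity phosphatases of the MAP kinase phosphatase type remove both phosphates, and several are themselves induced by the signals they end, which makes them feedback brakes on Toll-like receptor signalling in macrophages. The GADD45 proteins are small adaptors without enzyme activity. They bind the upstream kinase MAP3K4 and can activate p38 and JNK, and they also bind cell cycle and DNA repair proteins.

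Libraries held 12616442 to 24214863 counts over 13298 to 18947 detected genes. The SR9009 library of mouse 1 was lowest on both measures (the next lowest had 16419 detected genes) and lay at 184.63 on the second principal component (23.14% of variance), where the others lay between -38.75 and 32.19. In every group the counts of mice 1 and 2 were closer to each other than to those of mice 3 or 4 except with SR9009 alone, where mouse 1 was apart. In the LPS group, for example, the mean chi-square per gene was 20.0 between mice 1 and 2, 9.26 between mice 3 and 4, and 57.1 to 105 across these pairs. The labels give no batch. Macrophage markers summed to 5403 to 11259 CPM (counts scaled to the TMM-adjusted size of the library) in each library, while each of 7 lists for other blood, marrow and stromal cells summed to at most 7.24 CPM. The highest of these was the neutrophil list, at 0.182 to 0.385 CPM with DMSO, 2.16 to 7.24 with LPS, 0.256 to 0.906 with SR9009 and 0.707 to 5.75 with SR9009 and LPS; 6 of its 7 markers had a count in some library and Ly6g had none. The part of these traces in the changes below was not tested. In bulk RNA, fewer cells making a transcript and less of it per cell cannot be told apart.

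With LPS, 6 of the 9 genes rose (Dusp1, Dusp2, Dusp5, Dusp16, Gadd45b and Gadd45g), 1 fell (Dusp6) and Dusp4 and Gadd45a did not pass the threshold of 0.05 on the adjusted p. Across all tested genes 19.4% were called higher and 20.4% lower. The median log2 fold change was 2.97 over the 9 genes and -0.08 over all tested genes. With upper-quartile scaling that all-gene median moved to -0.28 and calls over all genes to 2126 higher and 3459 lower, from 2611 and 2741, while the same 7 genes of the set were called in the same directions.

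**Figure D1:**
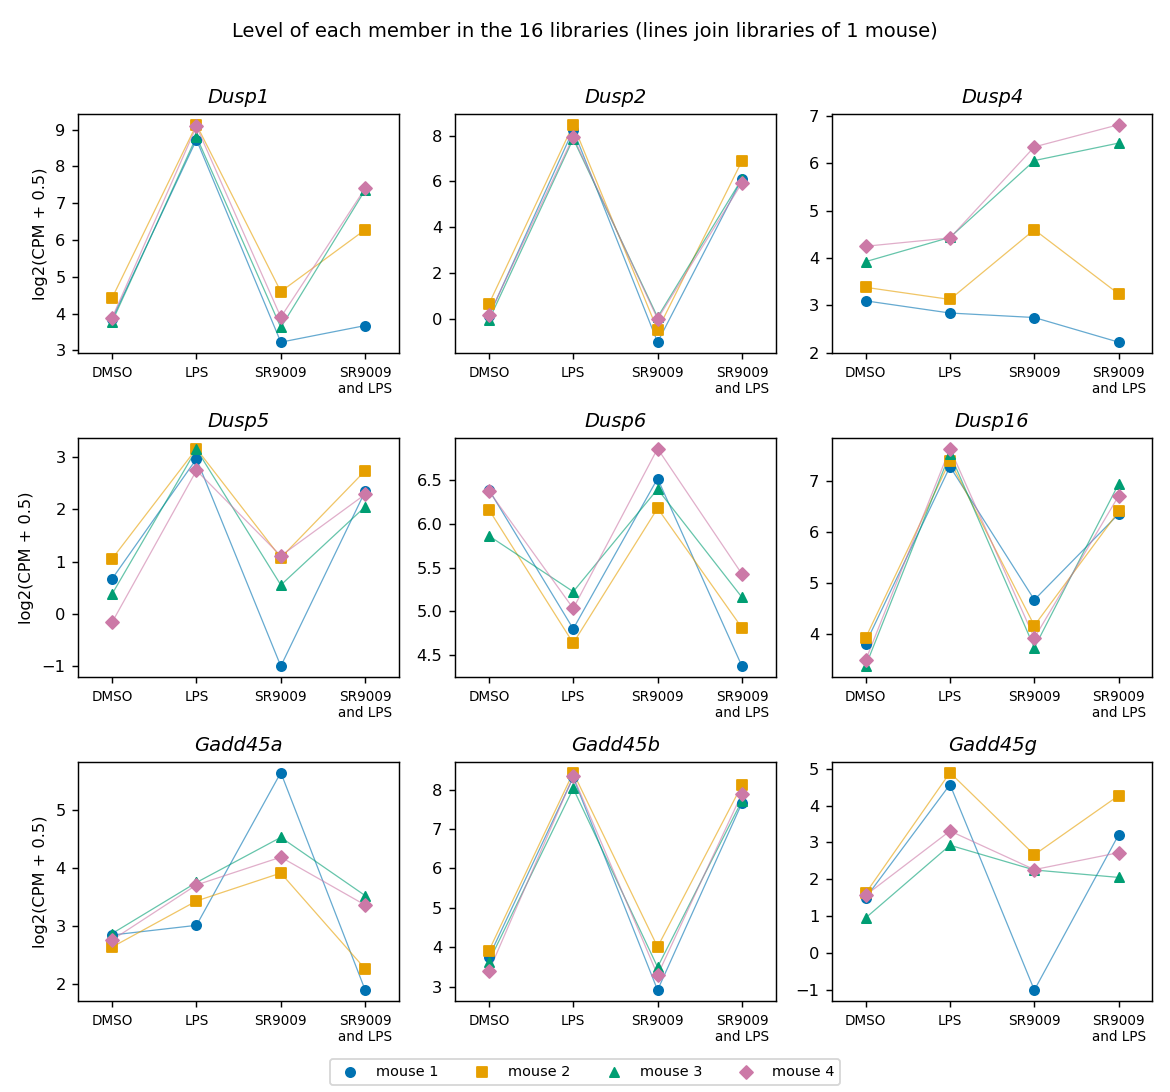
Level of each of the 9 genes, as log2 of CPM plus 0.5, in the 16 libraries; each marker is 1 library and lines join the libraries of 1 mouse. Dusp1, Dusp2, Dusp16 and Gadd45b were high in all 4 LPS libraries, Dusp6 was low with LPS, and Dusp4 separated mice 3 and 4 from mouse 1 after SR9009.

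Dusp1 and Dusp2 are nuclear phosphatases; Dusp1 is an immediate-early gene that acts mainly on p38 and JNK, and Dusp2 is found mostly in blood cells. Dusp1 was at 13.9, 21.0, 13.2 and 14.3 CPM with DMSO in mice 1 to 4 and at 422, 561, 448 and 543 CPM with LPS. The groups did not overlap, and the log2 fold change was 4.98 (SE 0.61, adjusted p = 1.16e-05), a 31.6-fold rise. Dusp2 was at 0.592, 1.08, 0.468 and 0.625 CPM with DMSO and at 304, 355, 232 and 246 CPM with LPS. It went from the edge of detection to one of the most abundant of the 9 transcripts, with a log2 fold change of 8.68 (SE 0.53, adjusted p = 2.19e-08).

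With LPS given after SR9009, Dusp2 reached 68.8, 118, 68.9 and 60.8 CPM, which is below every LPS library. Its log2 difference to LPS alone was -1.84 (SE 0.38, adjusted p = 0.0233), or 3.59-fold lower, and it was lower in 4 of 4 mice by -2.14, -1.58, -1.74 and -2.01. Dusp1 reached 12.3, 77.2, 164 and 169 CPM, also below every LPS library. Its log2 difference was -2.23 (SE 0.54, adjusted p = 0.0474), but the mice were far apart, at -5.05, -2.85, -1.45 and -1.68. In mouse 1 the level of Dusp1 after both agents lay below every DMSO library. Together these 2 genes were the only ones of the 9 called between SR9009 and LPS and LPS alone: 0 higher and 2 lower by edgeR, where 1.06% of all tested genes were called higher and 0.737% lower. With p under 0.05 before adjustment there were 1 higher and 3 lower, against 7.79% and 5.74% of all tested genes. DESeq2 and limma-voom each called 0 higher and 3 lower, against 2.71% and 2.55% of all genes in DESeq2 and 0.67% and 1.03% in limma-voom. The median of the 9 genes was -0.69, against 0.02 over all tested genes.

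Both calls lay close to the threshold. For Dusp1 the call held in 12 of 31 other settings, and of the 16 fits that left out 1 library it held only without the SR9009 library of mouse 1 or the SR9009 and LPS library of mouse 1, with an adjusted p of 0.0502 to 0.133 in the other 14. For Dusp2 it held in 22 of 31 other settings and in 10 of those 16 fits, and was lost without the LPS library of mouse 2, 3 or 4 or the SR9009 and LPS library of mouse 1, 3 or 4, with an adjusted p of 0.0512 to 0.0919. The log2 difference stayed between -2.55 and -1.85 for Dusp1 and between -2.10 and -1.72 for Dusp2 in these 16 fits. With a whole mouse left out, both calls held only without mouse 1. Without mouse 2, 3 or 4 the adjusted p was 0.236 to 0.383 for Dusp1 and 0.141 to 0.297 for Dusp2. Without the SR9009 library of mouse 1, 4.79% of all tested genes were called lower and 3 of the 9 were: Dusp1 (-2.20, adjusted p = 0.0168), Dusp2 (-1.81, adjusted p = 0.000691) and Dusp16 (-0.82, adjusted p = 0.00592).

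With SR9009 and no LPS neither gene passed the test. Dusp1 was at 8.85, 23.7, 11.8 and 14.5 CPM, overlapping DMSO, with a log2 difference of -0.08 (SE 0.52, adjusted p = 0.958). Dusp2 was listed at 0 in mouse 1, where 3 counts would be 0.209 CPM, and at 0.219, 0.564 and 0.508 CPM in mice 2 to 4. Its log2 difference was -0.97 (SE 0.49, adjusted p = 0.455). Within SR9009-treated cells, LPS still raised Dusp2 (7.80, SE 0.53, adjusted p = 1.13e-07) and Dusp1 (2.84, SE 0.56, adjusted p = 0.00108). The rise of Dusp1 there was 0.45 in mouse 1, 1.68 in mouse 2, 3.73 in mouse 3 and 3.50 in mouse 4 on the log2 scale.

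**Figure D2:**
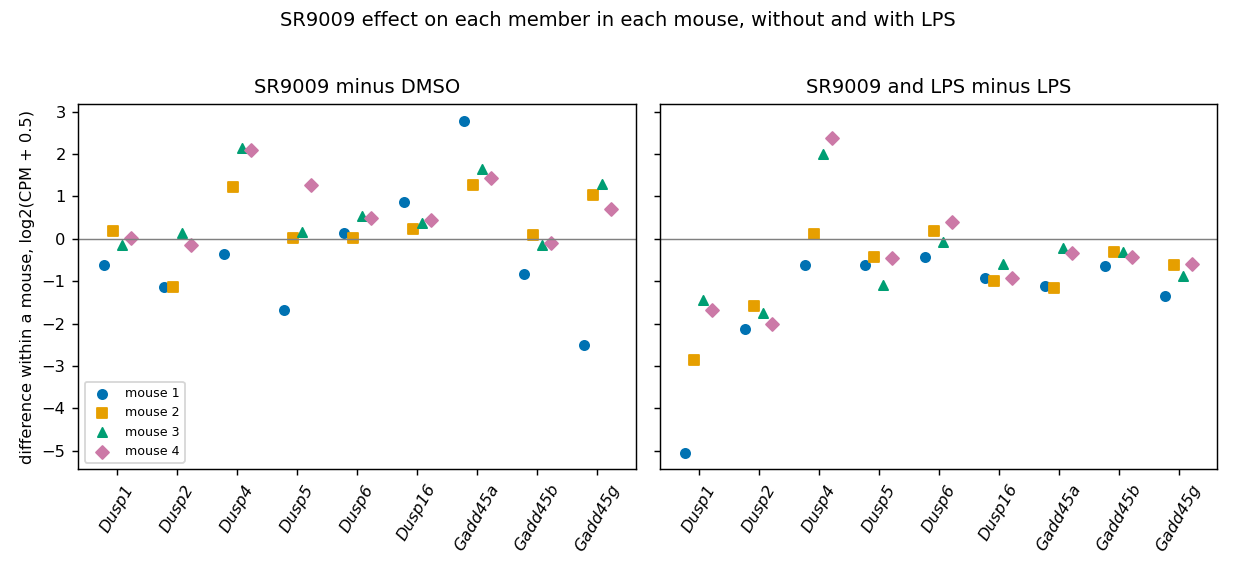
Difference made by SR9009 in each mouse for each gene, on the log2(CPM + 0.5) scale, without LPS (left) and with LPS (right); each marker is 1 mouse and the grey line is no difference. With LPS the 4 mice lay below 0 for 7 genes, of which only Dusp1 and Dusp2 were called by edgeR. The share of all tested genes with 4 mice below 0 was not computed. Values for the 7 genes ran from -5.05 for Dusp1 in mouse 1 to -0.23 for Gadd45a in mouse 3. Dusp4 lay at 1.99 and 2.39 in mice 3 and 4.

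The sequence upstream of these genes was searched for 7 motifs. Windows of the 250 bases before the RefSeq start were available for 8 of the 9 genes in the RefSeq promoter table (GRCm38.p6), out of 32851 windows. The E-box CACGTG, the same on both strands, occurred in 4 of these 8 (Dusp1, Dusp2, Gadd45b and Gadd45g) and in 6.02% of all windows. All 4 are among the 6 genes that rose with LPS, and their windows are printed for that reason. Dusp5 and Dusp16, which also rose, have no match in theirs. All 6 genes that rose are among the 8 with a window, so most of the 8 windows belong to genes that rose. The 4 printed windows are given 5′ to 3′ on the gene's strand. Capitals mark the E-box and, in Dusp1, also the cyclic AMP response element TGACGTCA.
Dusp1: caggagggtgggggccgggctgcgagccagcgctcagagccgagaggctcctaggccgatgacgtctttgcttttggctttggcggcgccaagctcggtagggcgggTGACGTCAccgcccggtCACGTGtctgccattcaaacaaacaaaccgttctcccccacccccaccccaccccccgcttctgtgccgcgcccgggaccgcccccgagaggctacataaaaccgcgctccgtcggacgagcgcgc
Dusp2: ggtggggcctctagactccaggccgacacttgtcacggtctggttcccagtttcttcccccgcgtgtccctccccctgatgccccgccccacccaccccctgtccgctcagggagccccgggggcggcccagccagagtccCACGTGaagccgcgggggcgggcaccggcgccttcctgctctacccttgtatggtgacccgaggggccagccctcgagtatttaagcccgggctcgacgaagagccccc
Gadd45b: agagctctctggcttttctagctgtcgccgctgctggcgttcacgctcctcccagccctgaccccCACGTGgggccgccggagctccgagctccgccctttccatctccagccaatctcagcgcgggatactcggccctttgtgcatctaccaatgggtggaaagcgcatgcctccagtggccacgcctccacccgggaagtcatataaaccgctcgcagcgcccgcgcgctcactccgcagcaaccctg
Gadd45g: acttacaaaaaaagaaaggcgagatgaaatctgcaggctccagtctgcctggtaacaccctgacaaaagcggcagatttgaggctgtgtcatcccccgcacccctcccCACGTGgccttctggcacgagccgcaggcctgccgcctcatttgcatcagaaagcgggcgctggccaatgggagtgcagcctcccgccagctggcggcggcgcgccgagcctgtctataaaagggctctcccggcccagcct
The windows are chr17:26508473-26508722 (minus strand) for Dusp1, chr2:127335909-127336158 (plus) for Dusp2, chr10:80929841-80930090 (plus) for Gadd45b and chr13:51846425-51846674 (plus) for Gadd45g. The E-box began at position -126, -109, -185 and -142 from the start, in that order. TGACGTCA was found in Dusp1 alone of the 8, and in 1.55% of all windows. An NF-κB motif (GGG, NN and TTTCC in a row), searched on both strands, was found in Dusp5 alone and in 1.41% of windows. TAGGTCA, the core that REV-ERB and ROR receptors share, and the AP-1 motif TGANTCA were in none of the 8 and in 2.23% and 6.75% of windows, on either strand. The SP1 box GGGCGG, on either strand, was in 6 of the 8 (Dusp1, Dusp2, Dusp5, Dusp16, Gadd45a and Gadd45b) and in 32.7% of windows, and the TATA box TATAAA was in Gadd45b and Gadd45g and in 12.4% of windows. The GC content of the 8 windows was 56.4% to 70.4%, against a median of 52.4% over all windows. The shares given for each motif are over all windows and were not matched for GC content. These matches describe letters in the sequence and were not tied to binding.

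Dusp4 and Dusp5, also nuclear, differed from Dusp1 and Dusp2 and from each other. Dusp5, which acts on ERK, was at 1.09, 1.58, 0.802 and 0.395 CPM with DMSO and at 7.32, 8.46, 8.38 and 6.21 CPM with LPS. It rose without overlap by 2.97 (SE 0.62, adjusted p = 0.00127) on the log2 scale, a 7.86-fold rise, and its mean level per length with LPS was the lowest of the 9, in a range that overlapped that of Dusp4. After SR9009 and LPS it was at 4.58, 6.18, 3.65 and 4.38 CPM, and although these 4 values lie below all 4 LPS values the difference of -0.69 (SE 0.57) had an adjusted p of 0.683. With SR9009 alone it was listed at 0 in mouse 1 and was at 1.61, 0.966 and 1.66 CPM in the others, a difference of 0.18 (SE 0.60, adjusted p = 0.919) that turned negative in 6 of 31 other settings. LPS raised it in SR9009-treated cells by 2.10 (SE 0.60, adjusted p = 0.015), a call lost without mouse 2 or without mouse 3, at an adjusted p of 0.0778 to 0.092, and with the compared groups only, at 0.107.

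Dusp4, which acts on ERK and JNK, passed no test, and its values with SR9009 differed widely between mice. It was at 8.06, 9.92, 14.7 and 18.5 CPM with DMSO and at 6.66, 8.23, 21.1 and 21.0 CPM with LPS, so these groups overlapped (0.16, SE 0.86, adjusted p = 0.902). With SR9009 it was at 6.20, 23.7, 66.1 and 80.8 CPM, and with SR9009 and LPS at 4.17, 8.95, 85.5 and 112 CPM. Mice 3 and 4 were high and mouse 1 was low in both SR9009 groups. The fitted differences of 1.79 (SE 0.87, adjusted p = 0.436) without LPS and 1.88 (SE 0.88, adjusted p = 0.365) with LPS did not pass the threshold in 4 mice. The split ran along the same pairs of mice as the whole libraries, and mouse 1 had the library that stands apart only in the SR9009 group; the part of either in the Dusp4 values was not tested.

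Dusp6 is a cytoplasmic phosphatase that acts on ERK and is itself a transcriptional output of ERK signalling. It was the member with the highest level per length in vehicle-treated cells, and the only phosphatase of the 6 that fell with LPS. It was at 83.6, 71.3, 57.8 and 82.7 CPM with DMSO and at 27.3, 24.3, 36.9 and 32.2 CPM with LPS, without overlap (-1.29, SE 0.24, adjusted p = 0.000489), or 2.45-fold lower. With SR9009 the groups overlapped those without it: the levels were 91.3, 72.01, 83.9 and 116 CPM with SR9009 and 20.2, 27.5, 35.2 and 42.5 CPM with both. LPS lowered Dusp6 in SR9009-treated cells by -1.54 (SE 0.24, adjusted p = 0.000169), again in 4 of 4 mice. The SR9009 effect was 0.30 (SE 0.24, adjusted p = 0.658) without LPS and 0.05 (SE 0.24, adjusted p = 0.965) with LPS.

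Dusp16, a phosphatase for JNK and p38, had the smallest SE of the induced phosphatases. It was at 13.5, 14.7, 9.79 and 10.7 CPM with DMSO and at 156, 169, 186 and 200 CPM with LPS, a 14.6-fold rise (3.87, SE 0.25, adjusted p = 2.92e-08). After SR9009 and LPS it was at 81.6, 84.6, 123 and 105 CPM. These values lie below every LPS library, and the differences within mice were -0.93, -0.995, -0.59 and -0.93. The fitted difference of -0.85 (SE 0.22) missed the threshold at an adjusted p of 0.0709. It passed in 7 of 31 other settings, among them DESeq2 (adjusted p = 0.0117), limma-voom (adjusted p = 0.0423) and the fit without the SR9009 library of mouse 1 given above. With SR9009 alone Dusp16 was at 24.9, 17.4, 12.7 and 14.6 CPM, overlapping DMSO (0.52, SE 0.23, adjusted p = 0.405). LPS raised it in SR9009-treated cells by 2.50 (SE 0.24, adjusted p = 1.15e-06).

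**Figure D3:**
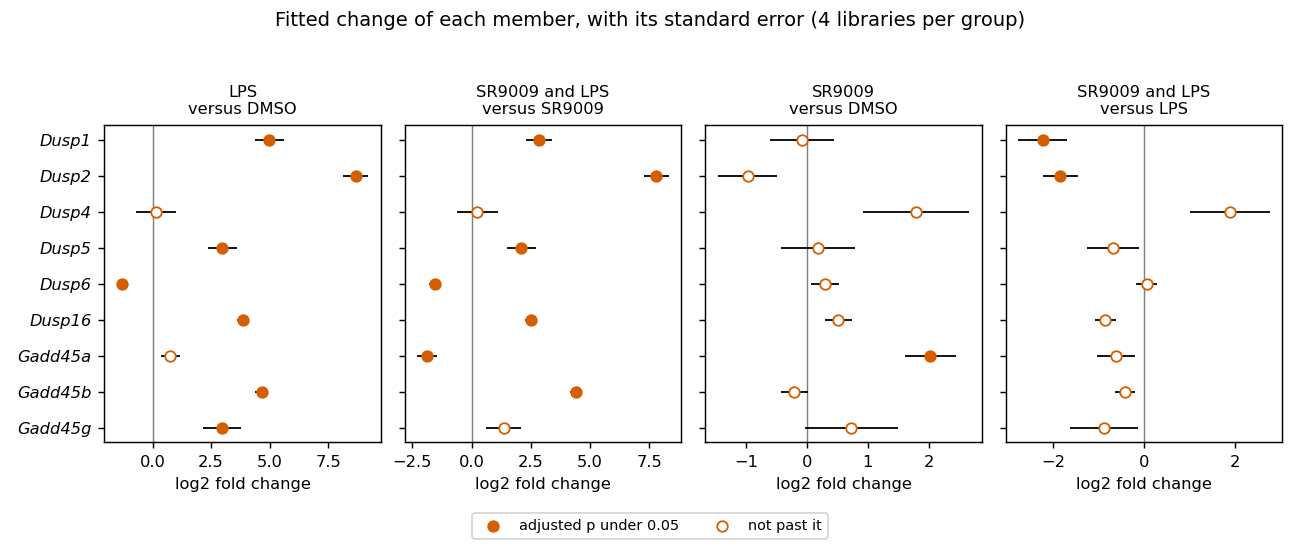
Fitted log2 fold change of each gene in 4 comparisons, with 1 standard error on each side; filled points passed the adjusted p of 0.05 and open points did not (4 libraries per group). Dusp2 with LPS lay highest, at 8.68, while Dusp4 and Gadd45a lay farther from 0 with SR9009 (1.79 and 2.02) than with LPS (0.16 and 0.77); Gadd45a was the gene called with SR9009 alone, and Dusp1 and Dusp2 were those called between SR9009 and LPS and LPS.

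The 3 GADD45 genes responded in different ways. Gadd45b, an NF-κB target that can restrain JNK signalling, was at 13.0, 14.5, 11.9 and 9.96 CPM with DMSO and at 316, 345, 260 and 322 CPM with LPS. It rose 25.2-fold (4.65, SE 0.26, adjusted p = 8.32e-09) and by nearly as much in SR9009-treated cells (4.43, SE 0.26, adjusted p = 2.03e-08), where it reached 201, 276, 210 and 238 CPM. These levels were lower than with LPS alone in 4 of 4 mice but the groups overlapped, and the difference of -0.43 (SE 0.22) had an adjusted p of 0.426. With SR9009 alone it was at 7.04, 15.6, 10.8 and 9.31 CPM (-0.21, SE 0.22, adjusted p = 0.759).

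Gadd45g, a cytokine-inducible member, was at 2.32, 2.58, 1.44 and 2.47 CPM with DMSO and at 23.2, 29.2, 7.09 and 9.42 CPM with LPS. The rise of 2.97 (SE 0.80, adjusted p = 0.00777) was larger in mice 1 and 2 (3.07 and 3.27) than in mice 3 and 4 (1.97 and 1.74), and the call was lost without mouse 2 (adjusted p = 0.0639). SR9009 and LPS gave 8.75, 18.8, 3.65 and 6.10 CPM, lower in 4 of 4 mice with overlapping groups (-0.88, SE 0.75, adjusted p = 0.692). With SR9009 alone the gene was listed at 0 in mouse 1 and was at 5.85, 4.27 and 4.30 CPM in the others, each above every DMSO library; the fitted difference was 0.73 (SE 0.76, adjusted p = 0.75), and its sign turned in 2 of 31 other settings. LPS in SR9009-treated cells gave 1.35 (SE 0.76, adjusted p = 0.197).

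Gadd45a, a target of p53 and of the integrated stress response, was the 1 gene of the 9 that changed with SR9009 alone. It was at 6.69, 5.73, 6.82 and 6.28 CPM with DMSO and at 49.3, 14.5, 22.5 and 17.7 CPM with SR9009. Every SR9009 library lay above every DMSO library, and the log2 fold change was 2.02 (SE 0.42, adjusted p = 0.0316), or 4.06-fold. That is 1 of 9 higher and 0 of 9 lower, against 0.313% and 0.566% over all tested genes; at an unadjusted p under 0.05 the counts were 2 and 0, against 7.96% and 3.72%. DESeq2 and limma-voom each called 1 higher and 0 lower, against 0.953% and 1.51% of all genes in DESeq2 and 0.26% and 0.491% in limma-voom. The median over the 9 genes was 0.30, against 0.01 over all tested genes. The highest value came from the library of mouse 1 that stands apart. Without it the 3 others averaged 18.2 ± 4.01 CPM (SD, n = 3), and the log2 fold change was 1.47 (adjusted p = 0.0375), or 2.76-fold. In that fit 0.696% of all tested genes were called higher. The call was lost in 12 of 31 other settings. Among the fits without 1 library these were the ones without any of the DMSO libraries, the LPS library of mouse 2 or the SR9009 library of mouse 3 or 4, with an adjusted p of 0.0512 to 0.145. With a whole mouse left out, the call held only without mouse 1. Without mouse 2, 3 or 4 the adjusted p was 0.189 to 0.282.

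LPS alone left Gadd45a at 7.57, 10.3, 12.9 and 12.6 CPM, above every DMSO library, but the difference of 0.77 (SE 0.41) had an adjusted p of 0.153. Gadd45a in LPS versus DMSO passed in 3 of 31 other settings: the compared groups only (adjusted p = 0.00526), without mouse 1 (adjusted p = 0.0227), and with the replicate block once the SR9009 library of mouse 1 was left out (adjusted p = 0.0221). After SR9009 and LPS it was at 3.23, 4.30, 11.0 and 9.78 CPM, which is below every library with SR9009 alone (-1.87, SE 0.42, adjusted p = 0.00292, or 3.66-fold lower). The differences within mice were -3.74, -1.65, -1.001 and -0.82. Without the SR9009 library of mouse 1 that stands apart the value was -1.30 (adjusted p = 0.00583), and without mouse 1 altogether -1.07 (adjusted p = 0.0118). Gadd45a was therefore called lower with LPS in SR9009-treated cells, while without SR9009 its fitted difference was positive and not called. This fall and the rise with SR9009 alone share the same SR9009 libraries. The interaction, which tests whether the 2 LPS responses differ, did not pass in edgeR (adjusted p = 0.168). Against LPS alone the 4 mice were at -1.11, -1.17, -0.23 and -0.35, with overlapping groups (-0.62, SE 0.41, adjusted p = 0.575).

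In SR9009-treated cells, LPS raised 5 of the 9 genes (Dusp1, Dusp2, Dusp5, Dusp16 and Gadd45b) and lowered 2 (Dusp6 and Gadd45a), where 14.5% of all tested genes were called higher and 15.8% lower. The median was 2.10, against -0.12 over all tested genes and -0.25 with upper-quartile scaling, which called 1706 genes higher and 2779 lower in place of 1944 and 2126. Whether SR9009 acted differently with LPS than without was tested as the interaction. None of the 9 passed in edgeR, where 1 gene of 13438 (0.00744%) was called (Gm5150, named here after its values were seen), and none passed in limma-voom, which called 0.0% of all genes in either direction. At an unadjusted p under 0.05 there were 3, all negative in edgeR, against 3.63% negative and 3.5% positive over all genes: Dusp1 (-2.14, SE 0.74, adjusted p = 0.52), Dusp16 (-1.37, SE 0.32, adjusted p = 0.199) and Gadd45a (-2.64, SE 0.58, adjusted p = 0.168). For each of these 3 the interaction was negative in 4 of 4 mice, and for Gadd45a it was -3.90, -2.44, -1.88 and -1.77. The fit that picked the 3 genes used these same libraries, so the agreement of the mice is no separate support. Dusp2 was also negative in 4 of 4 mice, at an adjusted p of 0.834 in edgeR. DESeq2 called Dusp16 (adjusted p = 0.0158) and Gadd45a (adjusted p = 0.00369), both negative, where it called 0.372% of all genes negative and 0.394% positive.

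Levels of different genes were compared per length, in FPKM (fragments per kilobase of gene, scaled to the library). With DMSO the order was Dusp6 at 22.9 ± 3.79, Gadd45b at 7.55 ± 1.15, Dusp1 at 4.58 ± 1.07, Dusp4 at 4.54 ± 1.70, Gadd45a at 3.51 ± 0.259, Gadd45g at 1.82 ± 0.435, Dusp16 at 1.51 ± 0.284, Dusp5 at 0.379 ± 0.195 and Dusp2 at 0.335 ± 0.130 FPKM (SD, n = 4). Dusp6 stood above the rest without overlap, while the ranges of Gadd45b, Dusp1, Dusp4 and Gadd45a overlapped from neighbour to neighbour, as did those of Gadd45g and Dusp16 and those of Dusp5 and Dusp2. With LPS the order was headed by Gadd45b at 197 ± 24.6, Dusp1 at 150 ± 20.1 and Dusp2 at 143 ± 30.8 FPKM, whose ranges overlapped. They stood clear of Dusp16 at 22.8 ± 1.97 FPKM, followed by Gadd45g at 14.9, Dusp6 at 9.65, Gadd45a at 6.15, Dusp4 at 5.18 and Dusp5 at 3.09 FPKM. With SR9009, Dusp6 at 27.8 ± 5.89, Dusp4 at 15.1 ± 11.9 and Gadd45a at 14.4 ± 9.68 FPKM led with overlapping ranges. With SR9009 and LPS, Gadd45b at 144 ± 21.6 FPKM stood alone above Dusp2 at 39.2 ± 13.4, Dusp1 at 31.3 ± 22.1 and Dusp4 at 18.8 ± 19.4 FPKM, which overlapped.

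The annotation bears mainly on Dusp1 and Gadd45a. In the count table (GRCm39), Dusp1 spans chromosome 17 from 26724564 to 26781102 on the minus strand and overlaps the start of Ergic1 on the plus strand, which had 20964 counts in all against 37733 for Dusp1. Gadd45a, on chromosome 6 from 67012080 to 67014441 on the minus strand, overlaps the plus-strand long noncoding RNA E230016M11Rik, with 217 counts against 3975. Each other gene that overlaps Dusp1 had at most 108 counts. Dusp5 and Dusp16 each overlap a long noncoding RNA on the other strand, with 1 and 7 counts. Whether counting used strand is not given in the sources used here, so reads from such partners cannot be told apart.

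Other genes of the pathway were followed in 7 lists, of which only genes that passed the filter on low counts were tested. Their counts stand against the 19.4% higher and 20.4% lower of all tested genes with LPS. Of 16 tested dual-specificity phosphatases outside the set, 3 rose and 3 fell, with a median of -0.32. Dusp22 fell from 37.5 ± 4.17 to 5.18 ± 1.46 CPM (-2.86, adjusted p = 4.8e-07) and the cofilin phosphatase Ssh2 from 131 ± 13.3 to 38.01 ± 12.9 CPM (-1.78, adjusted p = 2.83e-05). Of 9 tested MAP kinases (14 listed) 2 rose and 2 fell (median 0.31). Mapk14, which encodes p38α, fell (-1.29, adjusted p = 0.000742) and the atypical kinase gene Mapk6 rose (1.25, adjusted p = 0.00257).

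Of the 24 MAP2K and MAP3K genes 4 rose and 5 fell with LPS (median -0.23). Map2k1, which encodes the ERK kinase MEK1, rose from 151 ± 3.87 to 571 ± 48.1 CPM (1.92, adjusted p = 7.14e-07), and Map3k8, which links Toll-like receptors to MEK, rose from 25.4 ± 2.38 to 110 ± 6.63 CPM (2.11, adjusted p = 3.89e-06). Among 10 kinases activated by MAP kinases 3 rose and 4 fell (median -0.56). Mapkapk2, the p38 substrate that stabilizes cytokine transcripts, rose from 492 ± 130 to 2907 ± 170 CPM (2.56, adjusted p = 0.000109), and Mknk2 fell (-2.11, adjusted p = 0.00173). Of 6 tested Sprouty and Spred type inhibitors of the ERK pathway (10 listed) 3 rose and none fell in edgeR (median 1.01). Spred1 (1.70, adjusted p = 4.44e-05) and Spred3 (1.35, adjusted p = 0.0056) were among those that rose. Of 11 listed genes known as outputs of ERK signalling 6 were tested. Of these 4 rose and none fell (median 2.57), with 6 higher with the replicate block, 1 without mouse 3 and 2 without mouse 4. Those that rose include Phlda1 (3.93, adjusted p = 0.00324) and Plaur, the urokinase receptor (2.44, adjusted p = 0.00377). Phlda1 was at 0.394 ± 0.206 CPM with DMSO and 6.00 ± 3.50 CPM with LPS. A gene low without LPS can pass the filter through its LPS libraries, and the part of the filter in this median was not tested. Of 9 partners of the GADD45 proteins 2 rose and 3 fell (median -0.39); the cell cycle inhibitor Cdkn1a rose from 272 ± 37.6 to 1141 ± 189 CPM (2.07, adjusted p = 1.91e-05) and the nuclear receptor Rxra fell (-2.19, adjusted p = 0.000277). The SEs of the changes named here for LPS versus DMSO were 0.18 to 0.93.

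Between SR9009 and LPS and LPS alone, 1 gene of these 7 lists was called: Dusp22 was higher, at 10.5 ± 1.84 against 5.18 ± 1.46 CPM (1.02, SE 0.24, adjusted p = 0.0433), a call lost in 12 of the 16 fits without 1 library (adjusted p 0.0526 to 0.142). It was also lost without mouse 2, 3 or 4 (adjusted p 0.236 to 0.343). Over all tested genes 1.06% were called higher in that comparison and 0.737% lower. The 6 ERK output genes had negative differences, from -1.79 for Ccnd1 to -0.37 for Phlda1, with a median of -1.001 against 0.02 over all tested genes; none of the 6 passed the threshold in edgeR, and with the replicate block 1 fell. With SR9009 alone none of the tested genes of these 7 lists was called by edgeR. In SR9009-treated cells LPS called, higher and lower, 0 and 4 of the other phosphatases, 0 and 1 of the MAP kinases, 3 and 5 of the MAP2K and MAP3K genes, 2 and 2 of the activated kinases, 1 and 0 of the Sprouty and Spred genes, 2 and 0 of the ERK outputs and 1 and 1 of the GADD45 partners. Over all tested genes 14.5% were called higher there and 15.8% lower. With the replicate block 2 MAP kinases and 2 Sprouty and Spred genes were called in that comparison. Map2k6, which encodes a kinase of p38, fell most among those named there, from 6.40 ± 2.46 to 0.394 ± 0.272 CPM (-3.997, SE 0.44, adjusted p = 6.32e-06). It also fell with LPS without SR9009, from 6.06 ± 0.448 to 0.633 ± 0.190 CPM (-3.23, SE 0.43, adjusted p = 2.25e-05). None of the genes in the 7 lists had a called interaction in edgeR.

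**Figure D4:**
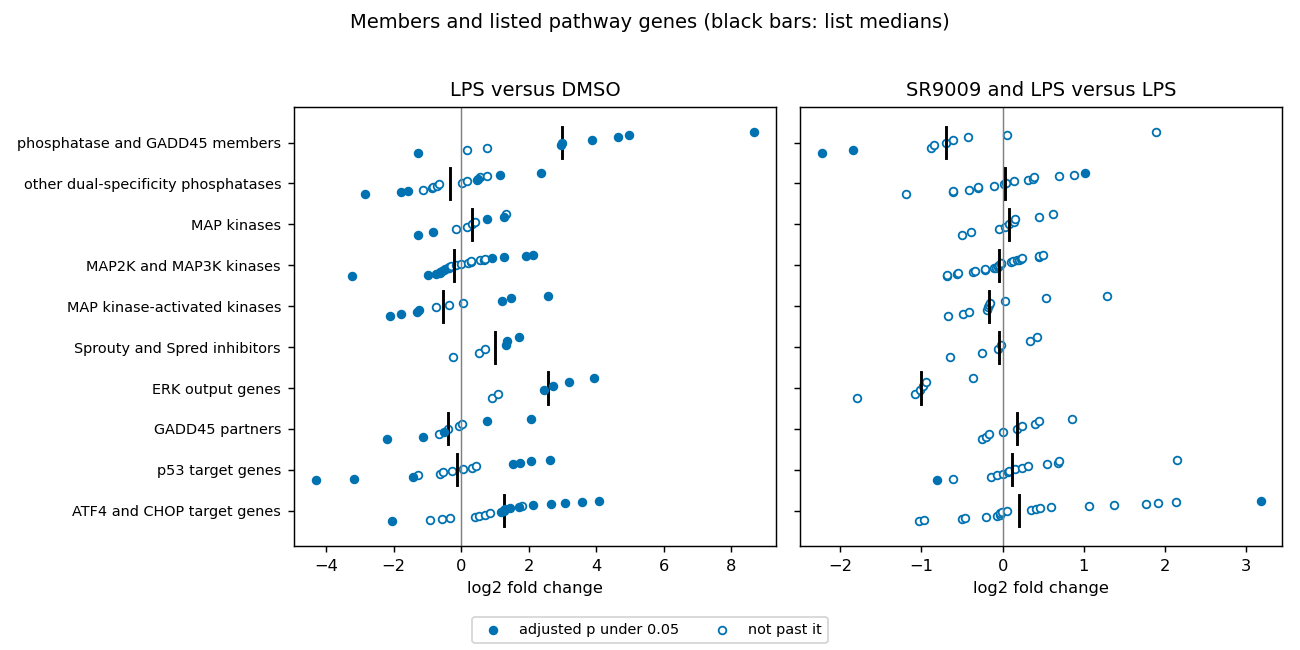
Log2 fold change of the 9 genes (top row) and of each tested gene in 9 lists, for LPS versus DMSO (left) and SR9009 and LPS versus LPS (right); filled points passed the adjusted p of 0.05 and black bars are list medians. With LPS the medians of the set (2.97) and of the ERK output genes (2.57) lay farthest right. With SR9009 added they lay at -0.69 and -1.001. Of 11 listed ERK output genes 6 were tested.

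For each of the 9 genes, the protein-coding genes with the closest pattern over the 16 libraries were sought among 9387 genes, by the root mean square difference of centred log2 values. The 16 libraries share their mice and treatments, so this is a description. Dusp1 was closest to Gpr31b (0.53), Gfi1 (0.57) and Cfb (0.58), and among the genes closest to Dusp2 were Cxcl9 (0.45) and Ccl4 (0.55). Dusp4 was closest to Ampd3 (0.60), Trib3 (0.68) and Srxn1 (0.74). Its own spread over the libraries was 1.41.

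Dusp5 was closest to Gramd1a (0.28), Rhoc (0.29) and Kremen1 (0.31), Dusp6 to Pfkfb2 (0.20), Ddhd2 (0.23) and Dnajc27 (0.25), and Dusp16 to Cflar (0.30), Tnfrsf8 (0.31) and Plek (0.31). Gadd45a, with a spread of 0.89, was closest to Samd8 (0.44), Atp6v1c1 (0.47) and Cpeb2 (0.48), each of which had its highest mean with SR9009 alone. Both the match and these means include the SR9009 library of mouse 1 that stands apart, and the part of that library was not tested. Gadd45b was closest to Gpr18 (0.38), Sod2 (0.40) and Plekha4 (0.41), and Gadd45g to Zyx (0.46), Furin (0.47) and Cdkn2d (0.48).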

How the data were processed

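Poly(A) RNA libraries of 16 samples were analysed, 4 per group. The submitters' processing notes name HISAT2 and the build GRCm39 (mm39); no source used here gives versions, the counter, the use of strand or the annotation. In the deposited table counts were raw whole-number counts per gene. The deposited FPKM values were scaled by the authors, in a way the headers do not state, and were used for levels between genes and as an alternative unit.

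The counts were fitted in edgeR 4.0.16 (R 4.3.3) with TMM scaling (factors 0.738 to 1.26), filterByExpr by group (counts of 10 and a total of 15) and a robust quasi-likelihood model with 1 mean per group over all 16 libraries. The Benjamini-Hochberg adjustment ran over 13438 genes in each of 5 contrasts. The fitted common coefficient of biological variation came to 0.377. CPM used TMM-scaled library sizes, and each SE was taken as the absolute log2 fold change over the root of its F statistic. The fit was tested on simulated data with known changes in the LPS libraries only. Those data had no shared effect of a mouse, and the SR9009 comparisons were not simulated.

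Other settings tried were scaling by RLE or upper quartile, an unfiltered table, a filter of 1 CPM in 4 libraries, DESeq2 1.42.0, limma 3.58.1 with voom or on log2 FPKM (pseudocount 1 or 0.1), mouse number as a block, the compared groups only, each mouse or library left out, and the SR9009 library of mouse 1 left out with the block. Mouse numbers pair the samples because each mouse gave 1 library to each group, per the labels. The main fit had no mouse term, and the block was an alternative setting. Deviations from group means correlated over 0.1 in 22 of 24 same-mouse pairs (0.0809 to 0.560). Between different mice they did so in 15 of 72 pairs (-0.567 to 0.522). Every pair of replicates differed beyond counting noise, with a mean chi-square per gene of at least 9.26.

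All 9 genes are named, with up to 2 called genes of smallest p per list and contrast and the 3 nearest patterns among genes of at least 5 CPM, of which 1 is not reported here. The 9 genes and the lists (9 of pathway genes, 8 of cell markers, from general knowledge) were chosen with earlier results of these data known. Of the listed genes 1 had no row in the table. Figures used Python 3.11.15 and matplotlib 3.10.9.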

Additional observations from a re-analysis of the deposited data

Results flagged for a closer look

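In each of the 36 sets of 4 libraries (9 genes, 4 groups), the highest and lowest library were compared with the nearest other by Dixon's criterion at 95%, which by chance marks about 1 set in 20. A library stood apart in 2 of them, and both were libraries of mouse 2. Dusp1 with DMSO was 21.0 CPM in mouse 2, against 13.2 to 14.3 CPM in the other mice. Dusp2 with SR9009 and LPS was 118 CPM in mouse 2, against 60.8 to 68.9 CPM in the others, and mouse 2 also had the highest Dusp2 value with DMSO and with LPS.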

How the results depend on the processing

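Each result was recomputed under 31 other settings (30 for the interaction). Of 1386 values for the 9 genes, 1280 kept their direction and their side of the threshold, 44 lost the call, 16 gained one and 46 changed sign, none of the last being called with all libraries. The number of the 9 genes called was 6 to 8 for LPS versus DMSO and 6 to 7 for SR9009 and LPS versus SR9009. For SR9009 versus DMSO it was 0 with log2 FPKM and a pseudocount of 0.1 and with the compared groups only, and 0 to 1 when a mouse or library was left out. For SR9009 and LPS versus LPS it was 1 with no filter, 4 without the SR9009 library of mouse 1 and with the replicate block (Gadd45b joined, adjusted p = 0.0282), and 0 to 3 when a mouse or library was left out. For the interaction it was 2 with DESeq2, 1 with log2 FPKM and a pseudocount of 1 (Dusp2), and 2 without the SR9009 library of mouse 1 and with the replicate block (Gadd45a, adjusted p = 0.0195, and Gadd45g, adjusted p = 0.0429). The cause of these differences was not tested.

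Adding the mouse as a replicate block took the genes called in SR9009 versus DMSO from 118 to 198, the genes called in SR9009 and LPS versus LPS from 241 to 535, and the genes called in interaction of SR9009 and LPS from 1 to 15; it changed no call of the 9 genes. Over all settings these counts ran from 1 to 586, 5 to 2900 and 0 to 271, and those for LPS versus DMSO and for SR9009 and LPS versus SR9009 from 3506 to 8847 and from 2113 to 6845.

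The changes of sign concern 8 differences, none called; 7 lay between -0.22 and 0.25 with all libraries and Gadd45g in SR9009 versus DMSO at 0.73. Dusp4 in LPS versus DMSO was -0.0398 with upper-quartile scaling, -0.0633 with the replicate block, -0.0487 with the block and without the SR9009 library of mouse 1, and -0.101 to 0.39 when a mouse or library was left out. Dusp4 in SR9009 and LPS versus SR9009 was -0.366 with limma-voom, -0.134 and -0.22 with log2 FPKM (pseudocount 1 and 0.1), -0.0697 with the block, -0.214 with the block and without that library, and -0.428 to 0.72 with a mouse or library left out. Dusp4 in interaction of SR9009 and LPS was -0.419, -0.222, -0.308, -0.0064 and -0.165 under the same settings, and -0.582 to 0.566 with a mouse or library left out. Dusp5 in SR9009 versus DMSO was -0.372 with limma-voom, -0.188 with log2 FPKM and a pseudocount of 0.1, and -0.372 to 0.585 with a mouse or library left out, and Gadd45g in that comparison was -0.238 and -0.274 under the first 2 of these. Dusp6 in SR9009 and LPS versus LPS was -0.0009 with log2 FPKM and a pseudocount of 0.1 and -0.127 to 0.218 with a mouse or library left out. The range with a mouse or library left out was -0.417 to 0.0923 for Dusp1 in SR9009 versus DMSO and -0.312 to 0.025 for the Gadd45b interaction.

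The order of levels per length was the same in CPM per kilobase. With 1 library left out, added after seeing the data, 7 to 9 genes kept their rank with DMSO, LPS and SR9009, and 5 to 9 with SR9009 and LPS. Among the pathway genes named for LPS versus DMSO, leaving out a mouse ended the call of Spred3 (adjusted p 0.057 to 0.065) and Plaur (0.0522). Counts were low for Dusp2, Dusp5 and Gadd45g without LPS, where a library held at most 160. The SR9009 library of mouse 1, which stands apart, held 0 of each. In it 3 counts would be 0.209 CPM, while Gadd45g was at 4.27 to 5.85 CPM in the SR9009 libraries of mice 2 to 4. Why that library held 0 was not tested.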

Other observations

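Gadd45a is a target of p53 and of the integrated stress response, so lists for both were followed. Of 14 tested p53 target genes 4 rose and 3 fell with LPS, where 19.4% of all tested genes were called higher and 20.4% lower. Sesn1, an inhibitor of mTORC1, fell from 261 ± 20.3 to 13.1 ± 4.71 CPM (-4.31, SE 0.30, adjusted p = 5.17e-08), and Cdkn1a rose as given above. The antiproliferative gene Btg2 was the 1 member of this list called with SR9009, lower both without LPS (69.1 ± 7.87 to 34.9 ± 8.99 CPM; -0.99, SE 0.20, adjusted p = 0.0253) and with LPS (85.9 ± 12.5 to 49.0 ± 4.44 CPM; -0.81, SE 0.19, adjusted p = 0.0445). These calls were lost in 4 and 13 of the 16 fits without 1 library (adjusted p 0.0636 to 0.121 and 0.0601 to 0.148). Both were lost without mouse 2, 3 or 4 (adjusted p 0.142 to 0.371 and 0.226 to 0.401). Over all tested genes SR9009 lowered 0.566% without LPS and 0.737% with LPS. The medians of the list with SR9009 were -0.40 without LPS and 0.12 with LPS. In SR9009-treated cells LPS raised 4 of the 14 and lowered 1, against 14.5% higher and 15.8% lower over all tested genes. With the replicate block 2 of the list were called between SR9009 and LPS and LPS, and 8 between SR9009 and LPS and SR9009. Over all 13438 genes the block called 296 higher and 239 lower in the first comparison, and 2207 and 2362 in the second.

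Of 20 tested targets of ATF4 and CHOP, the transcription factors of the integrated stress response, 10 rose and 1 fell with LPS (median 1.26). The shares over all tested genes were 19.4% higher and 20.4% lower. Atf3 rose from 84.6 ± 15.1 to 714 ± 226 CPM (3.08, SE 0.25, adjusted p = 2.08e-07). Mthfd2, a mitochondrial folate enzyme, rose with LPS from 26.9 ± 4.27 to 117 ± 23.4 CPM (2.12, SE 0.20, adjusted p = 7.69e-07) and with SR9009 alone to 75.6 ± 11.7 CPM (1.49, SE 0.19, adjusted p = 0.00414), and the second call was kept in all 16 fits without 1 library and lost without mouse 2, 3 or 4 (adjusted p 0.0601 to 0.0885). Without the SR9009 library of mouse 1, 4 of the 20 were called higher with SR9009 alone, against 1 with it. The share of all tested genes called higher was 0.696% without that library and 0.313% with it. Slc7a11, the cystine transporter, was the 1 gene of the list called between SR9009 and LPS and LPS, at 427 ± 403 against 47.2 ± 28.1 CPM (3.18, SE 0.74, adjusted p = 0.0402), a call that held in 3 of the 16 fits without 1 library (adjusted p 0.0519 to 0.144 in the rest). That call was also lost without mouse 2, 3 or 4 (adjusted p 0.141 to 0.334). Over all tested genes 1.06% were called higher in that comparison. In SR9009-treated cells LPS raised 7 of the 20 and lowered 0 by edgeR, against 14.5% and 15.8% over all tested genes. With the replicate block 2 of the 20 were called with SR9009 alone and 2 between SR9009 and LPS and LPS. Over all 13438 genes the block called 69 higher and 129 lower in the first comparison, and 296 and 239 in the second.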
